A study of Mus musculus with 9 samples.

Results

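The genes described here are those of bile acid synthesis and hepatobiliary transport, measured by RNA-seq in the liver of mice on a high-fat diet (HFD) stored in 2 ways. The 35 members were taken by symbol from the 33211 genes of the deposited table. They comprise 5 sterol hydroxylases, 6 enzymes that modify the ring and side chain or conjugate the product, 4 genes of the farnesoid X receptor (FXR) axis, 7 uptake transporters, 8 transporters of the canalicular membrane and 5 exporters of the basolateral membrane. After removal of genes with low counts 33 members were left among 14220 tested genes. Slc51a and Slc51b, which together encode the organic solute transporter OSTα-OSTβ, did not pass this filter.

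The diet had been held in a freezer at -20 °C (HFDfre, n = 5) or in a fridge at 4 °C (HFDfri, n = 4) for 7 days once its package was opened, after long-term storage at -80 °C. All animals were wild-type male C57BL/6 mice (C57BL6/J in the study's methods), 8 weeks old at the start and fed for 7 weeks, and both groups received the same HFD. A group on another diet was not analysed here, so each value below compares the stored diets with each other. Each library came from a separate mouse. The comparison addresses whether the way a diet is stored alters hepatic gene expression, and all differences are given as HFDfri minus HFDfre.

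Hepatocytes make bile acids from cholesterol. In the classical pathway Cyp7a1 places the first hydroxyl group and Cyp8b1 directs the product to cholic acid, whereas the alternative pathway starts with Cyp27a1 on the side chain and goes on with Cyp7b1. Bile acids bind FXR (Nr1h4), which induces the repressor SHP (Nr0b2) and the export pump Abcb11 and so limits synthesis and retention, and transporters of the sinusoidal and canalicular membranes move bile acids from portal blood to bile.

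The 9 libraries held between 58614917 and 69353439 counts. The share of counts on a ribosomal RNA-like locus, Gm26924, ran from 1.199% to 11.1% in HFDfre and from 0.466% to 5.21% in HFDfri. Mitochondrial genes took 11.4% to 19.8% of the counts in HFDfre and 8.93% to 13.6% in HFDfri, and the part of this share in the results was not tested. The tissue label was checked against 8 hepatocyte markers, which summed to 90140 to 96510 CPM, a unit that scales each count to its library, in HFDfre and 81060 to 112800 CPM in HFDfri. The members took 0.458% to 0.564% of all counts in HFDfre and 0.457% to 0.646% in HFDfri.

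A pair of libraries stood apart in these genes. HFDfri 1 was the highest or the lowest of the 9 libraries in 21 of the 33 tested members (63.6%), as against 32.8% of all tested genes. HFDfre 4 held such a position in 13 members (39.4%), as against 20.9% of all tested genes. In the other 7 libraries the count ran from 2 to 10 members. For many members the value without HFDfri 1 is therefore given as well. Where it is not given, the value may still depend on this library.

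Only 1 member passed the adjusted threshold of 0.05 in the edgeR quasi-likelihood test with Benjamini-Hochberg adjustment over all tested genes. Cyp7b1 rose in HFDfri, and no member fell. Of all 14220 tested genes 150 passed, or 1.05%, with 71 higher (0.499%) and 79 lower (0.556%). An unadjusted p under 0.05 was found for 6 members higher in HFDfri and 5 lower, 11 of 33 in all, as against 21.2% of all tested genes (11.4% higher and 9.79% lower). The 2 groups did not overlap in 4 members, namely Cyp7b1, Amacr, Slc10a2 and Slco1a1, as against 7.69% of all tested genes. The log2 fold change was above 0 in 19 members and below 0 in 14, with a median of 0.06, beside -0.01 over all tested genes. With DESeq2, the tool the study used, 6 members passed (Cyp7b1, Nr0b2, Slc10a2, Slco1a1 and Atp8b1 higher, Slco1a4 lower), as against 7.26% of all tested genes. The plot of fold changes by role shows this spread.

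**Figure D1:**
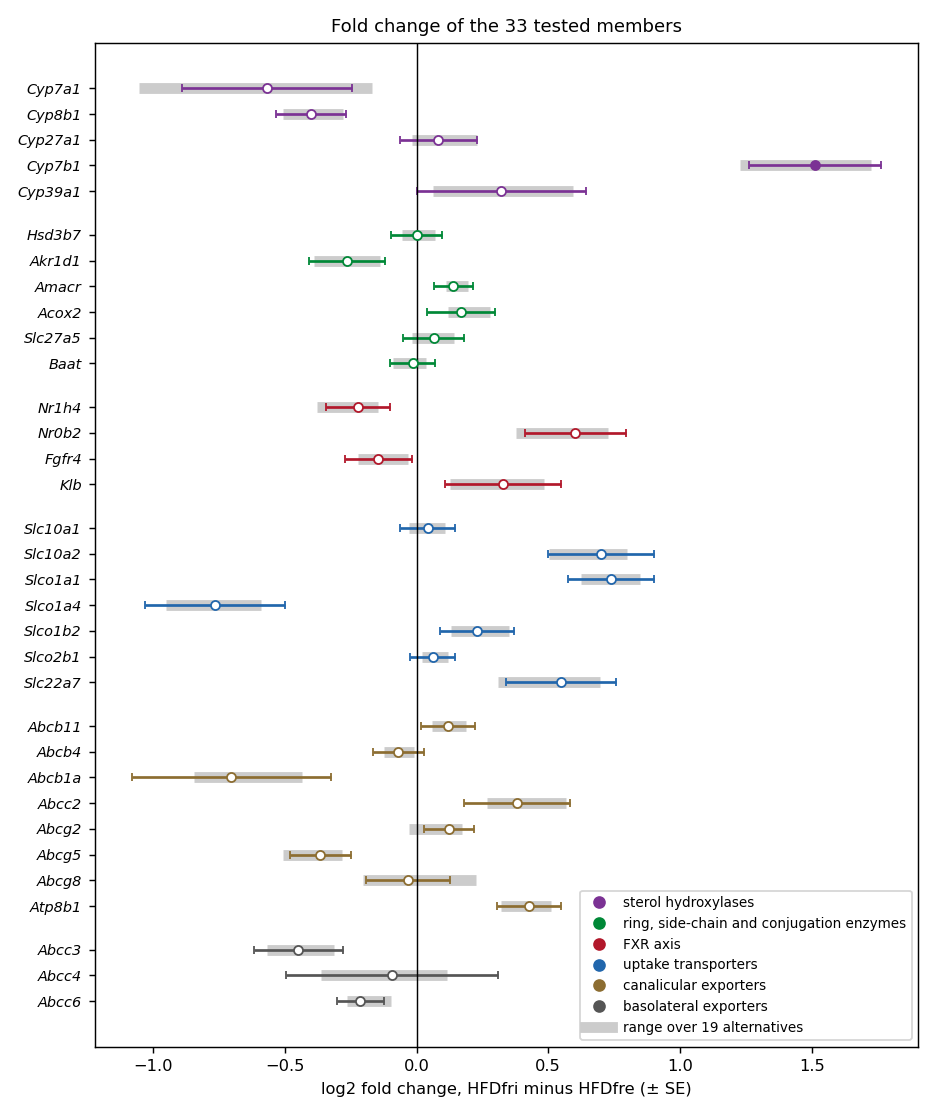
Log2 fold change, HFDfri minus HFDfre, of the 33 tested members on the x axis, with bars for the standard error (SE) of the edgeR fit and grey bars for the range over 19 alternative settings. Members are grouped and coloured by role. Cyp7b1 at 1.51 lies farthest from 0, Slco1a4 at -0.76 is the lowest, and the grey bars of some members near 0, such as Baat and Abcg8, cross it.

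Of the 5 sterol hydroxylases, only Cyp7b1 passed the adjusted threshold. Cyp7b1, the oxysterol 7α-hydroxylase of the alternative pathway (ENSMUSG00000039519, chromosome 3, 18071950 to 18243338, minus strand, GRCm38), stood at 80.9, 96.1, 82.2, 56.4 and 84.4 CPM in HFDfre libraries 1 to 5 and at 346, 119.8, 254 and 193 CPM in HFDfri libraries 1 to 4. Each HFDfri library lay above each HFDfre library, with HFDfri 1 the highest and HFDfre 4 the lowest. The mean was 80.0 ± 14.5 CPM (SD, n = 5) in HFDfre and 228 ± 95.9 CPM (SD, n = 4) in HFDfri. Cyp7b1 had a log2 fold change of 1.51 ± 0.25 (SE), which is a 2.85-fold change, at an adjusted p of 0.0293, and Cyp7b1 ranked 27 of 14220 genes by p. The spread among the HFDfri libraries was wide, and HFDfri 2 was close to the highest HFDfre library. In whole liver, a lower number of cells of a type and less RNA per cell cannot be told apart, and this holds for each value below.

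The direction of Cyp7b1 was the same in all 19 alternatives, with a log2 fold change between 1.23 and 1.73, and 11 of them kept it past the threshold. Leaving out HFDfri 1, the highest library, gave 1.23 with an adjusted p of 0.0179. The adjusted p was above 0.05 without HFDfre 1 (0.0588), HFDfre 3 (0.0888), HFDfre 4 (0.0525), HFDfre 5 (0.0705), HFDfri 3 (0.081) or HFDfri 4 (0.0519). With the log2 level of Gm26924 as a covariate the log2 fold change was 1.59 (adjusted p = 0.0486), and in the 5 libraries with under 3% of their counts on this locus it was 1.40 (adjusted p = 0.425).

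Cyp7a1 is the rate-limiting enzyme of the classical pathway (ENSMUSG00000028240, chromosome 4, 6265612 to 6275633, minus strand). It stood at 133, 181, 99.4, 128 and 71.6 CPM in the 5 HFDfre libraries and at 55.5, 61.6, 153 and 59.99 CPM in the 4 HFDfri libraries. In HFDfri, 3 libraries were below all of HFDfre, whereas HFDfri 3 was higher than all HFDfre libraries but HFDfre 2. On the log2 scale the difference was -0.57 ± 0.32 (SE), at an adjusted p of 0.342, which is within the spread between libraries. Without HFDfri 3 it was -1.05, and without HFDfri 1 it was -0.43. With the log2 level of Gm26924 as a covariate it was -0.17 (adjusted p = 0.717). It remained short of the adjusted threshold in all 19 alternatives.

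Cyp8b1, the sterol 12α-hydroxylase needed for cholic acid (ENSMUSG00000050445, chromosome 9, 121914356 to 121916305, minus strand), was measured at 304, 261, 284, 323 and 237 CPM in HFDfre and at 217, 169.7, 208 and 259.5 CPM in HFDfri. HFDfri 4 reached into the HFDfre range, and the other 3 HFDfri libraries lay below it. This gave a log2 fold change of -0.40 ± 0.13 (SE), with a p of 0.0103 and an adjusted p of 0.124.

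Cyp27a1 is the mitochondrial sterol 27-hydroxylase (ENSMUSG00000026170, chromosome 1, 74713574 to 74737892, plus strand) that comes before Cyp7b1 in the alternative pathway. Its values were 343, 318, 299.7, 329 and 256 CPM in HFDfre and 229.5, 359, 328 and 393 CPM in HFDfri. The HFDfre range lay within the HFDfri range. The log2 fold change was 0.08 ± 0.15 (SE), at an adjusted p of 0.791, and it was 0.21 without HFDfri 1. Cyp39a1, which hydroxylates 24-hydroxycholesterol, averaged 14.3 ± 5.001 CPM in HFDfre and 17.9 ± 8.05 CPM in HFDfri (log2 fold change 0.32, adjusted p = 0.603), and without HFDfri 1 the log2 fold change was 0.57 (adjusted p = 0.169).

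Cyp7b1 was set against Cyp7a1 within each library as the ratio of their CPM per kb of exon. The ratio ran from 0.852 to 2.27 in HFDfre (1.38 ± 0.567, SD, n = 5) and from 3.19 to 12.03 in HFDfri (6.29 ± 4.04, SD, n = 4). The 2 ranges did not overlap, as was already so for Cyp7b1 alone, so this ratio adds no separate result. The ratio of Cyp8b1 to Cyp7a1 ran from 3.09 to 7.09 in HFDfre and from 2.90 to 9.26 in HFDfri, so the groups overlapped. No test was made of these ratios.

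**Figure D2:**
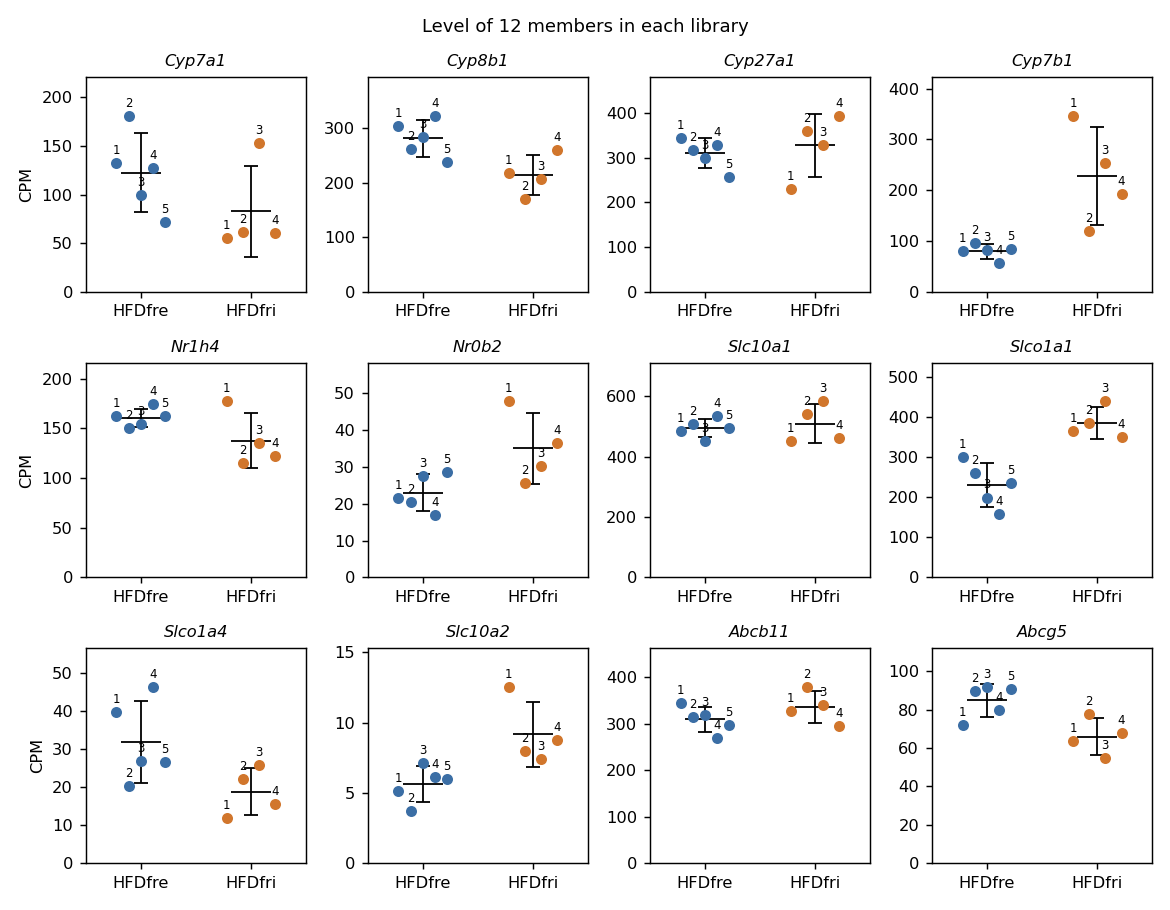
Level in CPM (y axis, from 0) of 12 members in each HFDfre (n = 5) and HFDfri (n = 4) library, with the replicate number beside each point and a black bar for the mean with its SD. The groups do not overlap for Cyp7b1, Slco1a1 and Slc10a2, while HFDfri 3 stands among the HFDfre libraries for Cyp7a1.

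The 6 enzymes that finish the bile acid molecule gave small differences between the groups. Their median log2 fold change was 0.03, with a range of -0.26 to 0.17, and none had an unadjusted p under 0.05. Amacr is the racemase of the branched side chain (ENSMUSG00000022244, chromosome 15, 10981756 to 10996626, plus strand). It stood at 99.1, 98.2, 95.2, 103 and 102 CPM in HFDfre and at 113, 105, 106 and 115 CPM in HFDfri. Each HFDfri library was above each HFDfre library, but by a small margin, and the log2 fold change was 0.14 ± 0.07 (SE) with a p of 0.0853 and an adjusted p of 0.309.

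Akr1d1, the Δ4-3-oxosteroid 5β-reductase, averaged 157 ± 12.2 CPM in HFDfre and 131 ± 30.9 CPM in HFDfri (log2 fold change -0.26, adjusted p = 0.325), and without HFDfri 1 the log2 fold change was -0.14 (adjusted p = 0.444). Acox2, the peroxisomal oxidase that starts side-chain shortening, had a log2 fold change of 0.17 (adjusted p = 0.484). The final steps were nearer to 0. The bile acyl-CoA synthetase Slc27a5 had a log2 fold change of 0.07, and the amino acid conjugating enzyme Baat one of -0.01. Hsd3b7, the oxidoreductase that follows 7α-hydroxylation in both pathways, averaged 379 ± 22.8 CPM in HFDfre and 379 ± 41.3 CPM in HFDfri, a log2 fold change of 0.00 ± 0.10 (SE). Exons of Hsd3b7 overlap a gene on the same strand and a gene on the opposite strand, so its counts are uncertain.

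In the FXR axis, the receptor and its repressor target had values in opposite directions, neither past the adjusted threshold. Nr1h4, which encodes FXR (ENSMUSG00000047638, chromosome 10, 89454234 to 89533585, minus strand), stood at 162, 150.2, 154, 174 and 162 CPM in HFDfre and at 177, 115, 136 and 122 CPM in HFDfri. Of the HFDfri libraries, 3 were below all of HFDfre, and HFDfri 1 was the highest of all 9. Nr1h4 had a log2 fold change of -0.22 ± 0.12 (SE), at an adjusted p of 0.32. Without HFDfri 1 it was -0.38 with an adjusted p of 0.0293, so this library decides whether Nr1h4 passes. In that fit 7.65% of all tested genes passed, as against 1.05% with all libraries.

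Nr0b2 encodes SHP, an orphan receptor without a DNA-binding domain that represses Cyp7a1 and Cyp8b1 (ENSMUSG00000037583, chromosome 4, 133553376 to 133556536, plus strand). Its values were 21.6, 20.5, 27.5, 16.9 and 28.7 CPM in HFDfre and 47.8, 25.6, 30.2 and 36.5 CPM in HFDfri. HFDfri 2 lay within the HFDfre range, the other 3 HFDfri libraries lay above it, and HFDfri 1 was the highest. On the log2 scale the difference was 0.60 ± 0.19 (SE), with a p of 0.00849 and an adjusted p of 0.117, and it was 0.41 without HFDfri 1. The receptor of the ileal hormone FGF15 gave no test result past the threshold in either part. Fgfr4 averaged 25.2 ± 3.36 CPM in HFDfre and 22.8 ± 3.41 CPM in HFDfri (log2 fold change -0.15, adjusted p = 0.545), and without HFDfri 1 the log2 fold change was -0.08 (adjusted p = 0.733). Its coreceptor β-Klotho, Klb, averaged 11.99 ± 2.22 and 15.1 ± 5.51 CPM (adjusted p = 0.425).

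The promoter of Nr0b2 is shown because this gene links the receptor to the synthetic enzymes. The 250 bases before its RefSeq start (GRCm38.p6, chr4:133553126-133553375, plus strand) are given 5′ to 3′, with the matches to the E-box CACGTG and to the STAT motif TTCNNNGAA in capitals.
Nr0b2: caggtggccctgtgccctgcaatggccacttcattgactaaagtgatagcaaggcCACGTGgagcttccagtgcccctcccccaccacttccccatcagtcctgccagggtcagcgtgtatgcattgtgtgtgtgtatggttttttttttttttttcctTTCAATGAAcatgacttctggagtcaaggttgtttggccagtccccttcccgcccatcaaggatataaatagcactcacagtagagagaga
The E-box lies at positions -195 to -190 from the start and the STAT motif at -91 to -83. Over 32851 RefSeq promoter windows of the same length, 6.02% hold this E-box and 7.02% this STAT motif on either strand.

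Relations between members over the 9 libraries were computed for 5 pairs on log2 CPM, with exact two-sided permutation tests over pairings and Benjamini-Hochberg adjustment over the 5 pairs. Cyp7a1 was lower where Nr0b2 was higher, with Pearson's r = -0.69 (p = 0.0386, adjusted p = 0.193) and Spearman's rho = -0.63 (p = 0.076, adjusted p = 0.242). Without HFDfre 2 and HFDfri 1, the libraries farthest from the median of Cyp7a1, r was -0.50. None of the 5 pairs passed the adjusted threshold on these values. The values share the difference between the groups, so they were also centred within each group. Centred values of a group depend on each other, and the permutations still ran over all 9 libraries. The p-values after centring are therefore approximate and may be too small. Centred Cyp7a1 and Nr0b2 then gave r = -0.54 (p = 0.138, adjusted p = 0.259) and rho = -0.63 (p = 0.076, adjusted p = 0.19).

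Slc10a1 and Nr0b2 had r = -0.45 over all libraries (p = 0.225, adjusted p = 0.25) and rho = -0.43 (p = 0.25, adjusted p = 0.41), and without HFDfri 1 and HFDfri 3 r was -0.62. Centred within the groups, they had r = -0.78 (p = 0.0161, adjusted p = 0.0806) and rho = -0.83 (p = 0.00827, adjusted p = 0.0413), and r without HFDfri 1 and HFDfri 3 was -0.78 (p = 0.0425). The centred rho of this pair had the only adjusted p under 0.05 among the relations given, and that p is approximate. Cyp8b1 and Nr0b2 had r = -0.48 over all libraries (p = 0.189, adjusted p = 0.25) and rho = -0.60 (p = 0.0968, adjusted p = 0.242), and r was -0.83 without HFDfri 2 and HFDfri 3. After centring, Cyp8b1 and Nr0b2 gave r = 0.06 (p = 0.886, adjusted p = 0.886) and rho = 0.05 (p = 0.912, adjusted p = 0.948), and r was -0.46 without HFDfri 2 and HFDfri 4, so the sign of the centred value changed with the libraries left out. Cyp7a1 with Cyp8b1 gave r = 0.45 (p = 0.224, adjusted p = 0.25) and rho = 0.37 (p = 0.336, adjusted p = 0.41), and r was 0.42 without HFDfre 2 and HFDfri 1. Centred within the groups, this pair had r = 0.11 (p = 0.778, adjusted p = 0.886) and rho = 0.03 (p = 0.948, adjusted p = 0.948), and r was 0.52 without HFDfre 2 and HFDfri 3.

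Among the 7 uptake transporters the log2 fold change was above 0 in 6, with a median of 0.23, and none passed the adjusted threshold. Slc10a1 encodes NTCP, the main sodium-dependent carrier of conjugated bile acids into hepatocytes (ENSMUSG00000021135, chromosome 12, 80953183 to 80968705, minus strand). It stood at 484, 507, 452, 536 and 495 CPM in HFDfre and at 452, 542, 584 and 462 CPM in HFDfri. The HFDfre range lay within the HFDfri range, and the log2 fold change was 0.04 ± 0.10 (SE), at an adjusted p of 0.85.

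The organic anion transporters Slco1a1 and Slco1a4, neighbouring paralogs on chromosome 6, had values in opposite directions. Slco1a1, or OATP1A1 (ENSMUSG00000041698, chromosome 6, 141907282 to 141946962, minus strand), stood at 300.0, 262, 199.7, 158 and 237 CPM in HFDfre and at 365, 387, 440.1 and 350.4 CPM in HFDfri. Each HFDfri library lay above each HFDfre library, and HFDfre 4 was the lowest. This gave a log2 fold change of 0.74 ± 0.16 (SE), a 1.67-fold difference, with a p of 0.000697 and an adjusted p of 0.0533. This is just short of the threshold, and 5 of 19 alternatives took it past, DESeq2 (0.000841) and the fit without HFDfri 1 (0.0306) included. Of all tested genes 7.26% passed with DESeq2 and 7.65% without HFDfri 1.

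Slco1a4, or OATP1A4 (ENSMUSG00000030237, chromosome 6, 141805440 to 141856199, minus strand), had 39.6, 20.1, 26.8, 46.2 and 26.4 CPM in HFDfre and 11.8, 22.1, 25.6 and 15.3 CPM in HFDfri. All HFDfre libraries but HFDfre 2 lay above all of HFDfri. HFDfre 4 was the highest and HFDfri 1 the lowest. The log2 fold change was -0.76 ± 0.27 (SE), with a p of 0.014 and an adjusted p of 0.141, and it was -0.61 without HFDfri 1. Per length, Slco1a1 exceeded Slco1a4 by a factor of 4.15 to 15.8 in HFDfre and of 20.9 to 37.5 in HFDfri, with no overlap and no test. The groups already did not overlap in Slco1a1 alone, so this ratio adds no separate result. Reads that fit both paralogs may have been split between them in the counting.

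The promoters of Slco1a1 and Slco1a4 are printed because these paralogs had values in opposite directions. Both are the 250 bases before the RefSeq start in GRCm38.p6, on the minus strand, at chr6:141946963-141947212 and chr6:141856221-141856470. Capitals mark AGGTCA, the hexamer bound by many nuclear receptors, on either strand.
Slco1a1: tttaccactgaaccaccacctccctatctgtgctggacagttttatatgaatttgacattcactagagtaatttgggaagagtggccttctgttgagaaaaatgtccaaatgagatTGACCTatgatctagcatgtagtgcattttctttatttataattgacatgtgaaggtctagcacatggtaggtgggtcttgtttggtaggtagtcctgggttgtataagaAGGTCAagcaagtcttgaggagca
Slco1a4: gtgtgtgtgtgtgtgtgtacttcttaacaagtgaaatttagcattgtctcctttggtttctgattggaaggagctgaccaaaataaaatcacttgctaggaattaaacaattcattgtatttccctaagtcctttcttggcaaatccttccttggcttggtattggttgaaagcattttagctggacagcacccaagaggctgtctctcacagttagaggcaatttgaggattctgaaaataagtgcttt
Slco1a1 holds the hexamer at positions -134 to -129 and again at -24 to -19, and Slco1a4 holds none in this window. Of all windows 14.0% hold it.

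Slc10a2, the apical sodium-dependent bile acid transporter ASBT (ENSMUSG00000023073, chromosome 8, 5083219 to 5105351, minus strand), is best known from the ileum and is also made by cholangiocytes. It was low in these livers, at 5.14, 3.72, 7.14, 6.12 and 5.98 CPM in HFDfre and 12.5, 7.96, 7.37 and 8.74 CPM in HFDfri. Each HFDfri library lay above each HFDfre library, and HFDfri 1 was the highest. Slc10a2 had a log2 fold change of 0.70 ± 0.20 (SE), with a p of 0.00457 and an adjusted p of 0.0981, and it was 0.50 without HFDfri 1.

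The cells that could carry Slc10a2 into the sample were read from marker genes. Of 8 cholangiocyte markers 6 were tested and none passed the adjusted threshold. Their summed level was 35.7 to 56.0 CPM in HFDfre and 32.99 to 58.4 CPM in HFDfri, so the groups overlapped. Sox9 averaged 1.904 CPM in HFDfre and 3.62 CPM in HFDfri (log2 fold change 0.93, adjusted p = 0.109). Without HFDfri 2 the log2 fold change of Sox9 was 1.16 (adjusted p = 0.0284). Cftr had no count in HFDfre and at most 0.166 CPM in HFDfri. The part of bile duct cells in the values of Slc10a2 was not tested. Of 6 ileal enterocyte markers, Fabp6, Lct and Sis had no count in any library, where 3 counts correspond to 0.0407 to 0.0578 CPM. Vil1 was at most 0.193 CPM in HFDfre and 0.221 CPM in HFDfri. Fabp2 and Apoa4, which the liver also makes, averaged 181.4 and 1388 CPM in HFDfre and 128.9 and 765.3 CPM in HFDfri, and neither passed the adjusted threshold.

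Slc22a7, the organic anion transporter OAT2 (ENSMUSG00000067144, chromosome 17, 46432183 to 46438457, minus strand), stood at 43.3, 29.99, 40.4, 26.9 and 31.3 CPM in HFDfre and at 72.5, 34.1, 39.98 and 54.7 CPM in HFDfri. HFDfri 1 and HFDfri 4 lay above all HFDfre libraries, and the other 2 lay within their range. On the log2 scale the difference was 0.55 ± 0.21 (SE), at an adjusted p of 0.168, and it was 0.31 without HFDfri 1. The liver-specific OATP1B2, Slco1b2, averaged 647 ± 38.05 CPM in HFDfre and 759 ± 164 CPM in HFDfri (adjusted p = 0.373). Without HFDfri 1 its log2 fold change was 0.35 with an adjusted p of 0.0484, so this library decides whether it passes. In that fit 7.65% of all tested genes passed. Slco2b1, which takes up sulfated steroids, had a log2 fold change of 0.06 (adjusted p = 0.726).

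Of the 8 canalicular genes 4 had a log2 fold change above 0 and 4 below, with a median of 0.04. Abcb11 encodes BSEP, the pump that drives bile acids into bile (ENSMUSG00000027048, chromosome 2, 69238282 to 69342616, minus strand). It stood at 345, 314, 319, 270.0 and 298 CPM in HFDfre and at 327, 379, 341 and 296 CPM in HFDfri. The groups overlapped, and the log2 fold change was 0.12 ± 0.10 (SE), at an adjusted p of 0.538.

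Atp8b1 is a phospholipid flippase that keeps the canalicular membrane in order. It stood at 16.4, 19.98, 18.7, 15.97 and 20.04 CPM in HFDfre and at 29.2, 24.7, 24.03 and 20.02 CPM in HFDfri. Of the HFDfri libraries, 3 lay above all of HFDfre, and HFDfri 4 lay just below its highest value. This gave a log2 fold change of 0.43 ± 0.12 (SE), with a p of 0.00426 and an adjusted p of 0.0959, and it was 0.32 without HFDfri 1.

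Abcg5 and Abcg8 form the heterodimer that secretes cholesterol into bile, and they are transcribed away from each other. Abcg5 (ENSMUSG00000040505, chromosome 17, 84658234 to 84683011, minus strand) stood at 72.1, 89.8, 91.8, 79.8 and 90.9 CPM in HFDfre and at 63.6, 77.7, 54.6 and 67.8 CPM in HFDfri. Of the HFDfri libraries, 3 lay below all of HFDfre, and HFDfri 2 lay within its range. The log2 fold change was -0.36 ± 0.12 (SE), with a p of 0.00809 and an adjusted p of 0.116.

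Abcg8 (ENSMUSG00000024254, chromosome 17, 84676302 to 84700333, plus strand) averaged 74.8 ± 8.99 CPM in HFDfre and 73.2 ± 19.3 CPM in HFDfri, with a log2 fold change of -0.03 ± 0.16 (SE) and an adjusted p of 0.931. Per length, Abcg5 exceeded Abcg8 by a factor of 1.34 to 2.02 in HFDfre and of 1.10 to 1.52 in HFDfri, so the groups overlapped. Across the 9 libraries both genes gave r = 0.43 (exact permutation p = 0.25, adjusted p = 0.25) and rho = 0.32 (p = 0.41, adjusted p = 0.41). Without HFDfri 1 and HFDfri 3 r was -0.35. Centred within the groups, r was 0.52 (approximate permutation p = 0.156, adjusted p = 0.259) and rho 0.38 (p = 0.312, adjusted p = 0.521). Without HFDfre 1 and HFDfri 3 the centred r was 0.44. The exons of these genes overlap by 82 bases on opposite strands, and whether the counting used strand is not given in the sources used here.

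The stretch between both start sites is short, and it is shown because it lies upstream of both genes. In RefSeq it is chr17:84683012-84683120 (GRCm38.p6), 109 bases in all, printed on the plus strand with Abcg5 to its left and Abcg8 to its right.
Abcg5-Abcg8: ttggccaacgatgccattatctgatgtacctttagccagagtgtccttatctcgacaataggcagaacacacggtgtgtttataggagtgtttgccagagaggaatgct
None of the 7 motifs searched was found in it, so no letter is in capitals.

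The other canalicular genes gave values within the spread between libraries. Abcb4, the floppase that supplies phosphatidylcholine to bile, had a log2 fold change of -0.07 (adjusted p = 0.731). Abcc2, or MRP2, which exports bilirubin conjugates, averaged 97.95 ± 22.9 CPM in HFDfre and 128 ± 34.97 CPM in HFDfri (adjusted p = 0.3). Its log2 fold change was 0.382, and 0.515 without HFDfri 1 (adjusted p = 0.0974). Abcg2, or BCRP, an exporter of sulfated conjugates and drugs, had a log2 fold change of 0.12 (adjusted p = 0.493), which was 0.06 without HFDfri 1 (adjusted p = 0.737). Abcb1a, a P-glycoprotein gene, was low at 1.95 ± 0.756 CPM in HFDfre and 1.196 ± 0.532 CPM in HFDfri. Its log2 fold change of -0.70 (adjusted p = 0.312) was -0.43 without HFDfri 1, and it has a close paralog, Abcb1b. Exons of Abcb1a, Abcb11, Slco2b1, Slc51a and Slc51b overlap genes on the opposite strand, so their counts are uncertain.

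The basolateral exporters, which return bile acids and conjugates to blood, had lower mean values in HFDfri in all 3 tested members. Abcc3, or MRP3 (ENSMUSG00000020865, chromosome 11, 94343295 to 94392997, minus strand), stood at 140.1, 134, 159, 199 and 159 CPM in HFDfre and at 78.5, 144, 109.7 and 132 CPM in HFDfri. HFDfri 2 lay within the HFDfre range and the other 3 HFDfri libraries lay below it, with HFDfri 1 the lowest. Abcc3 had a log2 fold change of -0.45 ± 0.17 (SE), with a p of 0.0219 and an adjusted p of 0.167, and it was -0.31 without HFDfri 1.

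Abcc6, an ATP-releasing transporter known for its part in preventing ectopic mineralization (ENSMUSG00000030834, chromosome 7, 45967555 to 46030302, minus strand), stood at 142, 144, 122, 134 and 125 CPM in HFDfre and at 111, 127, 113 and 109.8 CPM in HFDfri. HFDfri 2 was the only library of its group within the HFDfre range. On the log2 scale the difference was -0.21 ± 0.09 (SE), with a p of 0.0324 and an adjusted p of 0.197. Abcc4, or MRP4, was scarce at 0.762 ± 0.345 CPM in HFDfre and 0.713 ± 0.279 CPM in HFDfri. Slc51a had no count in any library, where 3 counts correspond to at most 0.0578 CPM. Slc51b had 6, 0, 23, 0 and 0 counts in HFDfre and 14, 13, 6 and 0 counts in HFDfri. The OSTα-OSTβ exporter, which rises in cholestatic liver, was thus not detected as a pair in these counts. Exons of Slc51a overlap Pcyt1a on the opposite strand by 567 bases, and the part of this overlap in its count of 0 was not tested.

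The members spanned more than 3 orders of magnitude in level per length. In CPM per kb of exon the highest was Slc10a1, at 225 ± 13.9 in HFDfre and 232 ± 28.9 in HFDfri, followed by Slc27a5 at 196 ± 14.5 and 205 ± 31.1. In HFDfre the next were Cyp8b1 at 144 ± 17.3, Cyp27a1 at 142 ± 15.4, Hsd3b7 at 137 ± 8.22 and Slco1b2 at 131 ± 7.72, and the last 3 means lay within the SD of Cyp8b1. Cyp7b1 stood at 36.9 ± 6.69 in HFDfre, close to Amacr at 38.2 ± 1.24 and Cyp7a1 at 29.3 ± 9.78. In HFDfri it stood at 105 ± 44.3, close to Cyp8b1 at 109.5 ± 18.9, whereas Cyp7a1 stood at 19.8 ± 11.3. The lowest tested members were Abcb1a and Abcc4, the latter at 0.119 in HFDfre and 0.112 in HFDfri.

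**Figure D3:**
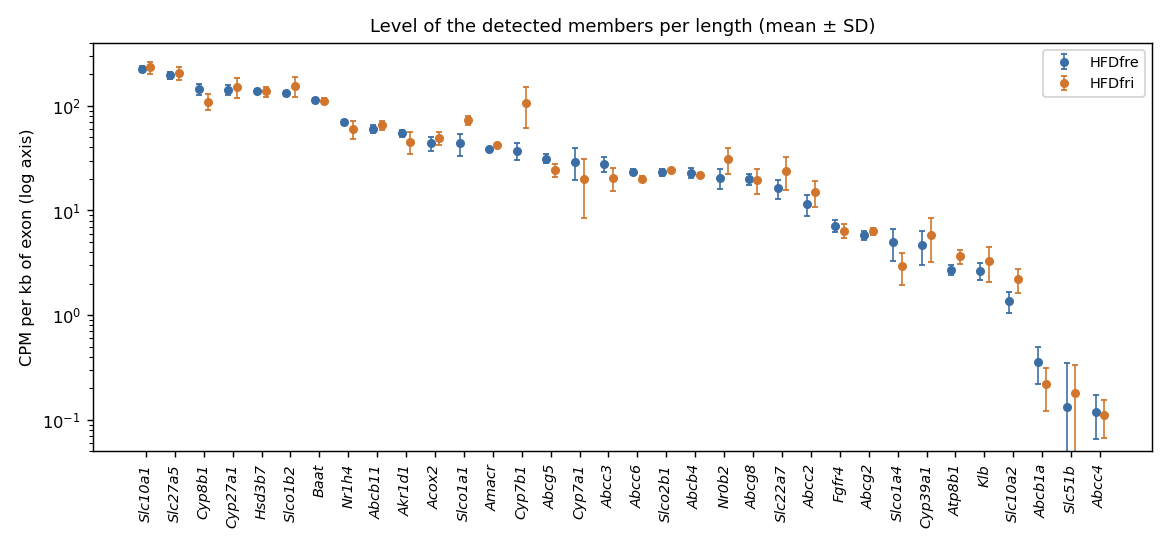
Level of each detected member in CPM per kb of exon (y axis, log scale) as mean and SD for HFDfre (n = 5) and HFDfri (n = 4), with the lower end of a bar left at the axis where the SD reaches past it. Slc10a1 is the highest in both groups, and Cyp7b1 stands at 36.9 in HFDfre and 105.4 in HFDfri.

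The libraries differed from each other in which members were high. HFDfri 1 held the highest value of the 9 libraries in 8 members and the lowest in 13. It was the highest in Cyp7b1, Nr0b2, Slc10a2, Slc22a7 and Atp8b1 and the lowest in Cyp7a1, Cyp27a1, Slco1a4, Abcb1a and Abcc3. HFDfre 4 was the highest in 6 and the lowest in 7, among them the highest in Slco1a4 and Abcc3 and the lowest in Cyp7b1, Slco1a1 and Nr0b2. For Cyp7b1, Slco1a4, Nr0b2 and Abcc3 these libraries thus marked opposite ends of the range. Without HFDfri 1, 4 members passed the adjusted threshold (Cyp7b1, Slco1a1 and Slco1b2 higher, Nr1h4 lower), as against 7.65% of all genes tested in that fit.

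**Figure D4:**
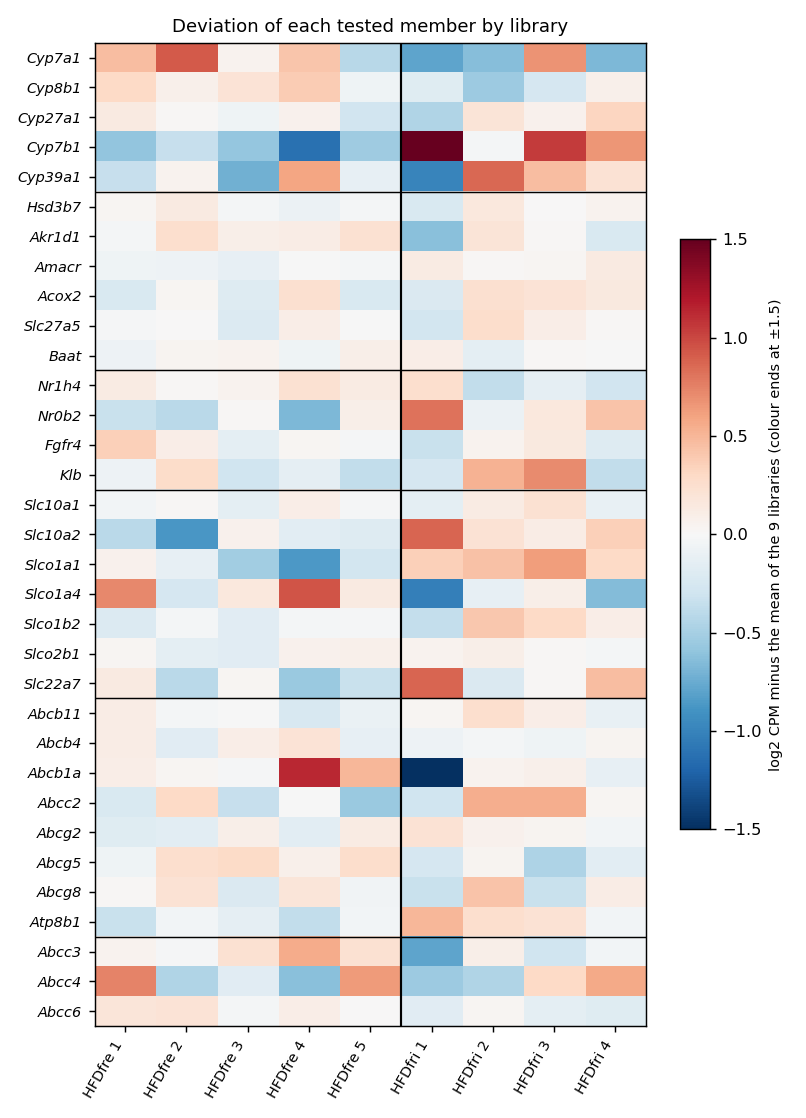
Log2 CPM of each tested member (y axis, by role) in each library (x axis) as the difference from the mean of the 9 libraries, from blue (lower) to red (higher), with colour ending at ±1.5. The column of HFDfri 1 holds the deepest red for Cyp7b1 and the deepest blue for Abcb1a, and the column of HFDfre 4 differs from it in sign for both.

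Of 23 other genes of bile acid and sterol metabolism 20 were tested, and 1 rose and 1 fell, with a median log2 fold change of 0.06. Over all tested genes 0.499% rose and 0.556% fell. Cyp2c70, which makes the muricholic acids of the mouse, rose from a mean of 198 ± 52.1 CPM in HFDfre to 453 ± 144 CPM in HFDfri. It stood at 168, 256, 150.5, 161 and 253 CPM in HFDfre and at 605, 292, 541 and 376 CPM in HFDfri, with each HFDfri library above each HFDfre library. This gave a log2 fold change of 1.198 ± 0.23 (SE), at an adjusted p of 0.036, past the threshold in 8 of 19 alternatives. The adjusted p was 0.0263 without HFDfri 1, the highest library, and lay between 0.0504 and 0.115 without any library of HFDfre or without HFDfri 3 or HFDfri 4.

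Cyp46a1, a cholesterol 24-hydroxylase best known from brain, fell from 3.91 ± 0.988 CPM in HFDfre to 1.43 ± 0.221 CPM in HFDfri (log2 fold change -1.45, adjusted p = 0.0293). Its adjusted p was above 0.05 without HFDfre 3 (0.0539), HFDfre 5 (0.0705), HFDfri 3 (0.081) or HFDfri 4 (0.0519). Ephx1, an epoxide hydrolase, averaged 214 CPM in HFDfre and 145 CPM in HFDfri (adjusted p = 0.0741).

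The transcription factors that act on the members were read in the same way. Of 18 regulators 15 were tested and 1 fell, as against 0.556% of all tested genes. Their median log2 fold change was 0.15. Nr1i3, the xenobiotic receptor CAR, fell from 515 ± 92.2 CPM in HFDfre to 273 ± 55.4 CPM in HFDfri (log2 fold change -0.92, adjusted p = 0.0333), and its groups did not overlap. Without HFDfre 2, 3, 4 or 5 or without HFDfri 3 its adjusted p lay between 0.0509 and 0.0965. Hnf4a, a hepatocyte factor that binds many bile acid genes, averaged 327 CPM in HFDfre and 449.9 CPM in HFDfri (adjusted p = 0.0566). Foxa2 averaged 25.1 and 16.1 CPM (adjusted p = 0.0853). Without HFDfri 1 both passed, Hnf4a with an adjusted p of 0.0379 and Foxa2 with 0.0323, as did Hnf4a without HFDfri 2 (0.0475). Of all genes tested, 7.65% passed without HFDfri 1 and 1.63% without HFDfri 2.

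Cyp7a1 and other members follow the daily clock, and the time of sampling is not given in the sources used here. Of 15 clock genes 1 passed, as against 1.05% of all tested genes, and their median log2 fold change was -0.03. Dbp, an output factor that binds the D-box and acts on Cyp7a1, fell from 82.4 ± 11.2 CPM in HFDfre to 47.4 ± 7.46 CPM in HFDfri (log2 fold change -0.80, adjusted p = 0.0293), and its groups did not overlap. Without HFDfre 3, HFDfre 5, HFDfri 3 or HFDfri 4 its adjusted p lay between 0.0636 and 0.0888. The part of Dbp in the values of Cyp7a1 was not tested.

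Cyp7b1 and Slco1a1 are known to be higher in male mouse liver, and Slco1a4 to be higher in female liver, so lists of sex-biased genes were read beside them. All animals were male. Of 11 other male-biased genes 4 rose and none fell, with a median log2 fold change of 0.81. Over all tested genes 0.499% rose and 0.556% fell. Their summed level was 8787 to 12620 CPM in HFDfre and 14590 to 26730 CPM in HFDfri, without overlap. Without Selenbp2 and Serpina1e, left out after the data were seen because earlier results had shown that they differ, the sum was 6694 to 10740 CPM in HFDfre and 8323 to 12890 CPM in HFDfri. The groups then overlapped, with HFDfri 3 below HFDfre 1, 3 and 5. Most of this sum was Mup20, at a mean of 7585 CPM in HFDfre and 9432 CPM in HFDfri. All 9 genes left had a log2 fold change above 0, with a median of 0.389, and 2 passed the adjusted threshold. Of these 9 genes 5 had an unadjusted p under 0.05, as against 11.4% of all tested genes higher in HFDfri. No overlap was found for 4, as against 7.69% of all tested genes. The genes of the list past the adjusted threshold were Selenbp2 (log2 fold change 2.47, adjusted p = 0.0117), Serpina1e (2.09, 0.0314), Ugt2b38 (0.81, 0.0293) and Susd4 (0.89, 0.0358). Cyp2d9 was at 0.09. Selenbp2 passed without any single library. Leaving out HFDfre 3, HFDfre 5, HFDfri 3 or HFDfri 4 took the adjusted p of the other 3 above 0.05, as did HFDfre 2 or HFDfre 4 for Serpina1e and HFDfre 1 or HFDfre 4 for Susd4, with adjusted p-values between 0.0504 and 0.108.

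Of 11 female-biased genes 8 were tested and 2 fell, as against 0.556% of all tested genes. Those that fell were Acot3 (log2 fold change -2.45, adjusted p = 0.0117) and Abcd2 (-0.83, 0.0354). Acot3 passed without any single library, and Abcd2 did not without HFDfri 3, HFDfri 4 or any of HFDfre 2 to 5 (adjusted p between 0.0509 and 0.0932). Their summed level was 39.9 to 109.5 CPM in HFDfre and 12.9 to 22.9 CPM in HFDfri, without overlap. Without Acot3, left out for the same reason, the sum was 17.4 to 59.1 CPM in HFDfre and 9.02 to 14.9 CPM in HFDfri, still without overlap. Most of it was Abcd2 and Cyp2b9, at means of 18.7 and 9.77 CPM in HFDfre and 10.6 and 0.82 CPM in HFDfri. Of the 7 tested genes left, 6 had a log2 fold change below 0, the median was -1.94, and 1 passed the adjusted threshold. An unadjusted p under 0.05 was found for 4, as against 9.79% of all tested genes lower in HFDfri. Only 1 did not overlap, as against 7.69% of all tested genes. The highest sum was in HFDfre 4, which also held the highest Slco1a4 and the lowest Cyp7b1. The highest sum of the male-biased genes was in HFDfri 1, which held the highest Cyp7b1. Without Selenbp2 and Serpina1e the highest sum was in HFDfri 4 (12890 CPM), above HFDfri 1 (12550 CPM). HFDfri 3, with Cyp7b1 at 254 CPM, held the lowest HFDfri sum with and without them (14590 and 8323 CPM). Selenbp2, Serpina1e and Acot3 were known from earlier results to differ between the groups, so these lists are no independent evidence. The part of these genes in the difference of Cyp7b1 was not tested.

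**Figure D5:**
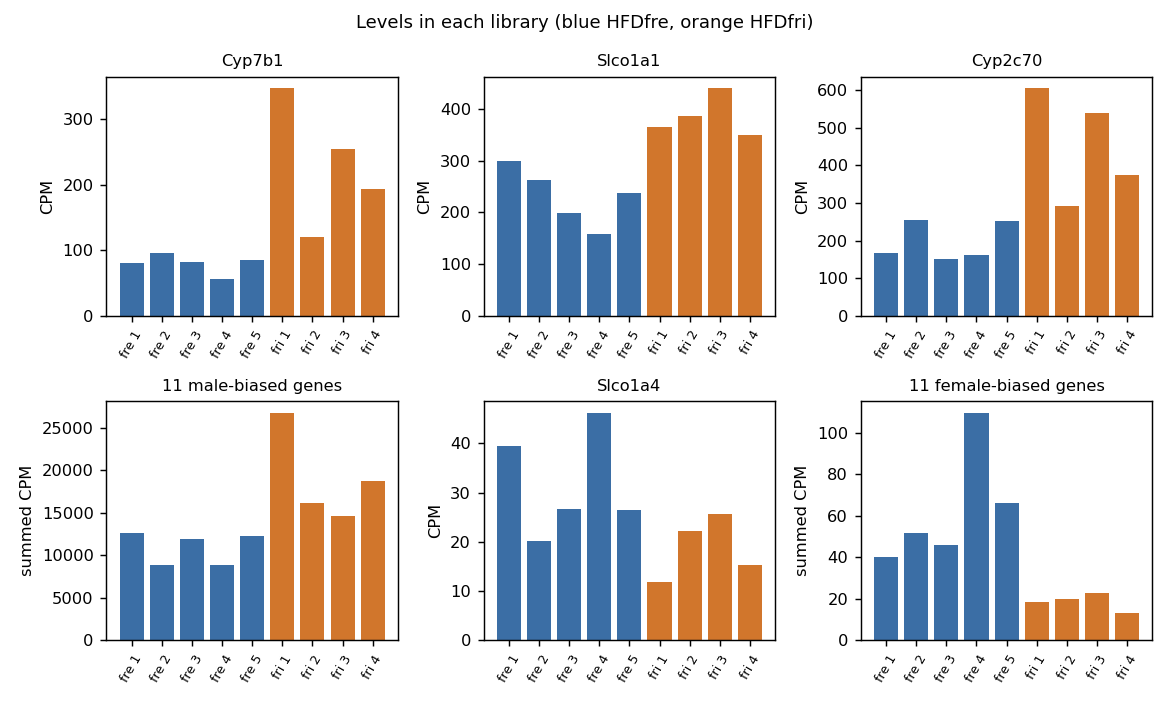
Level in each library (x axis, blue HFDfre, orange HFDfri) of Cyp7b1, Slco1a1, Cyp2c70 and Slco1a4 in CPM, and of the 11 male-biased and 11 female-biased genes in summed CPM (y axes, from 0). Bars of Cyp7b1, Slco1a1, Cyp2c70 and the male-biased sum are higher in each HFDfri library than in each HFDfre library, and those of the female-biased sum are lower.

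Other programs of the hepatocyte were read by list. Of 14 targets of PPARα, the fatty acid receptor, 2 fell and none rose, as against 0.556% and 0.499% of all tested genes. Those that fell were the ω-hydroxylases Cyp4a10 (log2 fold change -0.86, adjusted p = 0.0396) and Cyp4a14 (-1.63, 0.0425). Both lay above 0.05 without HFDfri 2, 3 or 4 or any of HFDfre 2 to 5, as did Cyp4a10 without HFDfre 1 (adjusted p between 0.0504 and 0.0992). Of 10 pericentral genes, which mark the zone around the central vein where Cyp7a1 is made, none passed, and 10 of 10 had a log2 fold change below 0 with a median of -0.31. Of 10 periportal genes none passed, 6 had a log2 fold change below 0, and their median was -0.07. Without HFDfri 1 the pericentral Oat (adjusted p = 0.0425) and the periportal Cps1 (0.0159) passed. In that fit 7.65% of all tested genes passed, as against 1.05% with all libraries. Among markers of Kupffer cells, endothelial cells, stellate cells and lymphocytes, 8 genes each, none passed the adjusted threshold. Their part in the results was not tested.

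RefSeq promoter windows were at hand for 25 members, in 33 windows. The other members, among them Cyp7b1, Cyp7a1 and Atp8b1, had no window and were not searched. The D-box TTATGNAA was found in 3 of the 33 member windows (Abcg2, Akr1d1 and Cyp27a1), as against 3.07% of all windows. The E-box CACGTG was found in 3 of 33 (Abcc4, Nr0b2 and Slc51a), as against 6.02% of all windows. The STAT motif TTCNNNGAA was found in 6 of 33 and the hexamer AGGTCA in 11 of 33, as against 7.02% and 14.0% of all windows. These counts were not tested. No member window held an exact match to the inverted repeat bound by FXR, the HNF1 motif or the LRH-1 motif TCAAGGTCA (which holds the hexamer AGGTCA). These are present in 0.00609%, 0.00913% and 0.387% of all windows. The FXR and HNF1 strings have 13 letters and were found in only 2 and 3 of 32851 windows. Sites that differ by a letter or lie beyond 250 bases were not searched, so absence here does not show that a member lacks such sites.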

How the data were processed

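RNA-seq libraries of mouse liver were analysed, 5 of HFDfre and 4 of HFDfri, grouped by the labels. Total RNA (TRIzol) was sequenced on an Illumina platform with paired ends. The labels name the kit NEBNext Ultra, and the published methods KAPA RNA HyperPrep. The submitters' processing notes name HISAT2, StringTie and mm10, while versions, annotation and strand setting are not given in the sources used here. The values the authors deposited were taken as estimated counts per gene, whole numbers that are not scaled between libraries. Count models treat the error of such estimates only approximately.

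Counts were rounded, which left them as they were, and filtered with filterByExpr by group, which kept 14220 of 33211 genes. Groups were tested by quasi-likelihood F (edgeR 4.0.16, R 4.3.3) after TMM scaling, without covariates, with Benjamini-Hochberg adjustment over all tested genes and a threshold of 0.05. The SE is the size of the log2 fold change divided by the square root of F. CPM are TMM-scaled, and for log2 CPM the prior count was 2. The library totals, 58614917 to 69353439 counts, set the counting error, and a count of 0 allows 3 counts, or 0.0407 to 0.0578 CPM. Such limits cover counting error only.

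Members and lists were chosen with earlier results of these data known. All 199 list genes were matched, 3 of them by gene identifier only. Given in full were Cyp7a1, Cyp8b1, Cyp27a1, Cyp7b1, Nr1h4, Nr0b2, Slc10a1, Abcb11 and members with an unadjusted p under 0.05 or no overlap between the groups. From the other lists, genes past the adjusted threshold and up to 3 more were named. A few others (Cftr, Cyp2d9, Mup20, Fabp6, Lct, Sis, Vil1, Fabp2 and Apoa4) were named after their values were seen.

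Alternatives were DESeq2 1.42.0, limma-voom (limma 3.58.1), DESeq2 size factors, library totals, no filter, at least 10 counts in every library, robust dispersion, a replicate block, a covariate for Gm26924, libraries under 3% of counts on it, and leaving out each library. For the genes of the other lists, the same alternatives were added after their values were seen. The scripts were tested on simulated data. Coordinates are from GENCODE M21 (GRCm38), which held 96.3% of the identifiers, and promoters from RefSeq (GRCm38.p6).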

Additional observations from a re-analysis of the deposited data

Results flagged for a closer look

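In 66 sets of 4 or 5 libraries, 1 for each tested member and group, the gap between the highest or lowest library and its neighbour was compared with Dixon's 95% critical value, and 2 sets lay above it, where about 3.3 would by chance. For Cyp7a1, HFDfri 3 at 153 CPM stood apart from the other 3 HFDfri libraries at 55.5 to 61.6 CPM, with a gap share of 0.897 (gap divided by the whole span of HFDfri). For Abcb1a, HFDfri 1 at 0.41 CPM stood below the others at 1.33 to 1.53 CPM, with a gap share of 0.891.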

How the results depend on the processing

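The count of members past the adjusted threshold (1) was 6 with DESeq2, 2 with library totals without TMM, with at least 10 counts in every library and with robust dispersion, and 0 in the libraries under 3% of counts on Gm26924, where only 5 libraries entered and the count with an unadjusted p under 0.05 fell from 11 to 7. Leaving out each library in turn gave 0 to 4 members past the adjusted threshold and 9 to 15 with an unadjusted p under 0.05. Over all genes the count past the adjusted threshold was 150, and it was 1033 with DESeq2, 76 with library totals, 72 without a filter, 51 with the covariate, 2 in the libraries under 3%, and 6 to 1106 when a library was left out. The cause of these differences was not tested.

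With the replicate block 0 members and 0 of all genes passed, and Cyp7b1 had a log2 fold change of 1.47 (adjusted p = 0.141). Libraries of the same replicate number did not deviate together (correlations of -0.136, 0.0339, 0.027 and 0.0813), so this numbering gave no sign of pairs. The numbers in the column names of the deposited table differ from it and were not compared.

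Changes of sign were found for values near 0. With library totals Baat was at 0.037 and Abcg8 at 0.039. With the block Cyp27a1 was at -0.002, Baat at 0.006 and Abcc4 at 0.114, and with the covariate Abcc4 was at 0.011. In the libraries under 3%, Abcg2 was at -0.027 and Abcg8 at 0.227. When a library was left out, the log2 fold change ran from -0.017 to 0.209 for Cyp27a1, from -0.019 to 0.144 for Slc27a5, from -0.063 to 0.029 for Baat, from -0.028 to 0.087 for Slc10a1, from -0.205 to 0.064 for Abcg8 and from -0.324 to 0.104 for Abcc4. Hsd3b7, at 0.00, has no direction. The relation of Cyp8b1 and Nr0b2 was at r = 0.055 after centring within the groups.

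With 5 and 4 libraries, differences of the size seen for most members cannot be told from the spread between libraries.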
